A study of Mus musculus with 20 samples.

Results

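The 39 genes described here encode complement and coagulation proteins that the liver makes and secretes into the blood. They were chosen by gene symbol from the known makeup of both cascades. The rule used no measured value, but earlier results of these data were known when the genes were chosen. All 39 were among the 13319 symbols counted in every library, and all 39 stayed among the 12907 genes tested after a filter on low counts.

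RNA was sequenced from the livers of 20 individual male mice fed a western diet, with 4 mice in each of 5 groups and a daily treatment that lasted 16 days. The hybrid group received a single molecule that joins glucagon to T3, the combination group received glucagon and T3 (triiodothyronine, the active thyroid hormone) as separate agents, and the other groups received glucagon alone, T3 alone or the control treatment. The hybrid libraries carry the code Cp, which was taken as the hybrid by elimination. All groups, control included, share the western diet, and the sources used here give no strain, age or dose.

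Complement is a set of plasma proteins that marks microbes and damaged cells. Its lectin, classical and alternative routes meet at the cleavage of C3 and end in the membrane attack complex, a pore built from C5, C6, C7, C8 and C9. Coagulation is a chain of proteases that ends with thrombin cutting fibrinogen into fibrin, and it is checked by anticoagulants and undone by plasmin. Hepatocytes are the main source of most of these proteins in plasma. Glucagon acts on hepatocytes through a receptor that raises cyclic AMP, and T3 acts through nuclear thyroid hormone receptors.

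Levels below are CPM, counts scaled to a common library size with TMM factors. CPM are not scaled by gene length, so they are compared between livers and not between genes. Changes are log2 ratios with the standard error of the fit (±), and p-values come from the quasi-likelihood test of edgeR with Benjamini-Hochberg adjustment over all 12907 genes. Genes with an adjusted value below 0.05 are named as called. In bulk liver, fewer cells of a type and less RNA per cell cannot be told apart.

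Library totals ran from 6091917 to 23195658 counts, and the T3 libraries were the shallowest. The 39 genes took 3.64 ± 0.719% of the counts in hybrid livers, 3.52 ± 0.481% in combination livers, 3.12 ± 0.377% in glucagon livers, 4.32 ± 0.775% in T3 livers and 3.87 ± 0.414% in control livers (SD, n = 4 each), and the lowest count of any of them in a library was 99. All T3 libraries ran in lane 5 and the replicates of the other groups ran in lanes 1 to 4, so T3 against control and a difference between lanes cannot be told apart. Gene expression varied most among the controls, with a biological coefficient of variation of 43.1% over all genes, against 18.9% to 25.9% in the treated groups. Control 1 was the highest of the 4 controls for 23 of the 39 genes and control 2 the lowest for 22. Control 2 also held 1070 CPM summed over 15 skeletal muscle markers and 2293 CPM over 16 interferon response genes, and glucagon 3 held 4032 CPM of the muscle markers. The 7 hepatocyte markers outside the 39 genes (Alb, Ttr, Apoa1 and others), none of them at 0 in any group, summed to 100533 to 144101 CPM in hybrid livers, 116397 to 181335 CPM in combination livers, 190693 to 256400 CPM in glucagon livers, 110767 to 156538 CPM in T3 livers and 160797 to 278687 CPM in control livers. They were thus lower in every hybrid and T3 liver than in every control, and Alb made up most of the sum. Their part in the results below was not tested.

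The promoters of 7 genes described below are shown next: 4 pore components, C6, C8a, C8b and C9, the neighbours Klkb1 and F11 of the contact system, and the lectin Mbl2. Each sequence holds the 150 bases before the gene's start, read 5′ to 3′ on the gene's strand, from RefSeq on GRCm38.p6. Capitals mark matches on either strand to 5 short motifs, GTTAAT (a motif known from liver promoters), CAAAGT (a core of HNF4 sites), TTGCNNAA (C/EBP), AGGTCA (a half-site of nuclear receptors) and TGACGTCA (the cyclic AMP response element).
C6 (chr15:4727025-4727174, plus strand): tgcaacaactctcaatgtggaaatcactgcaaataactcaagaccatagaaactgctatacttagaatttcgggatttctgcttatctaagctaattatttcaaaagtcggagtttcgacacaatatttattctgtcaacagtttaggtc
C8a (chr4:104876399-104876548, minus strand): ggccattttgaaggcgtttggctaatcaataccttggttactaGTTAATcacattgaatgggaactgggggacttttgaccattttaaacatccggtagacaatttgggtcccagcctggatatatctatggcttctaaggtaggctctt
C8b (chr4:104766167-104766316, plus strand): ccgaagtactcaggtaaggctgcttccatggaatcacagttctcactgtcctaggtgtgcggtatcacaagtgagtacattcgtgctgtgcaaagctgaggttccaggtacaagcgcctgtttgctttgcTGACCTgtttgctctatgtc
C9 (chr15:6445177-6445326, plus strand): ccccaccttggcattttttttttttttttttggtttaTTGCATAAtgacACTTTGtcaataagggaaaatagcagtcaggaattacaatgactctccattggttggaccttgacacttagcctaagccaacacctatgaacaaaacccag
Klkb1 (chr8:45294860-45295009, minus strand): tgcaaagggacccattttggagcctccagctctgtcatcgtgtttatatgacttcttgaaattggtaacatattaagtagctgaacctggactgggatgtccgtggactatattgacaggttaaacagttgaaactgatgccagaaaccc
F11 (chr8:45262032-45262181, minus strand): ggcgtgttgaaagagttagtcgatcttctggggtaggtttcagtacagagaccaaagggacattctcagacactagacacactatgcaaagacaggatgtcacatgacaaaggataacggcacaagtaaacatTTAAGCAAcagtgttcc
Mbl2 (chr19:30232778-30232927, plus strand): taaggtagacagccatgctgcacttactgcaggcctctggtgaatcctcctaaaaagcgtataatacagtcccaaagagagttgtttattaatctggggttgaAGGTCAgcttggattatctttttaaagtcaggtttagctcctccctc
C8a had a match to GTTAAT, C9 had matches to the HNF4 core and the C/EBP motif, F11 had a C/EBP match, and C8b and Mbl2 each had a nuclear receptor half-site. No match to these motifs stood in the windows shown for C6 and Klkb1.

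Over the 250 bases before the start, 30 of the 39 genes had an entry in the RefSeq promoter table. GTTAAT was found in 9 of those 30 and in 6.43% of all 32851 promoters, and CAAAGT in 6 of 30 and in 12.6% of all. TTGCNNAA stood in 7 of 30 against 9.56% of all, AGGTCA in 10 of 30 against 14.02% of all, and TGACGTCA in 1 of 30 against 1.55% of all. A direct repeat of AGGTCA with 4 bases between the copies, the arrangement that thyroid hormone receptors are known to bind, stood in 0.0152% of all promoters and in none of the 30. A match describes the letters and does not show that a factor binds there.

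Over the 5 groups, 16 of the 39 genes differed, where 42.4% of all genes tested did. By p-value they were Mbl2, Klkb1, Serpinf2, C6, C2, Proc, F11, Cfi, C8a, F13b, Serping1, C9, Proz, C4bp, Serpind1 and F9. The heat map of the 39 genes by library shows the pore components C6, C8a and C8b with the widest ranges. Hybrid 4 was the lowest of all 20 libraries for 18 of the 39 genes and held 685 CPM of the muscle markers, against 22.7 to 32.2 CPM in the other hybrid livers. Combination 4 held 406 CPM of these markers, against 21.1 to 30.8 CPM in the other combination livers. Control 1 was the highest of all 20 for 20 of the 39 genes. The part of the muscle markers in these levels was not tested.

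**Figure D1:**
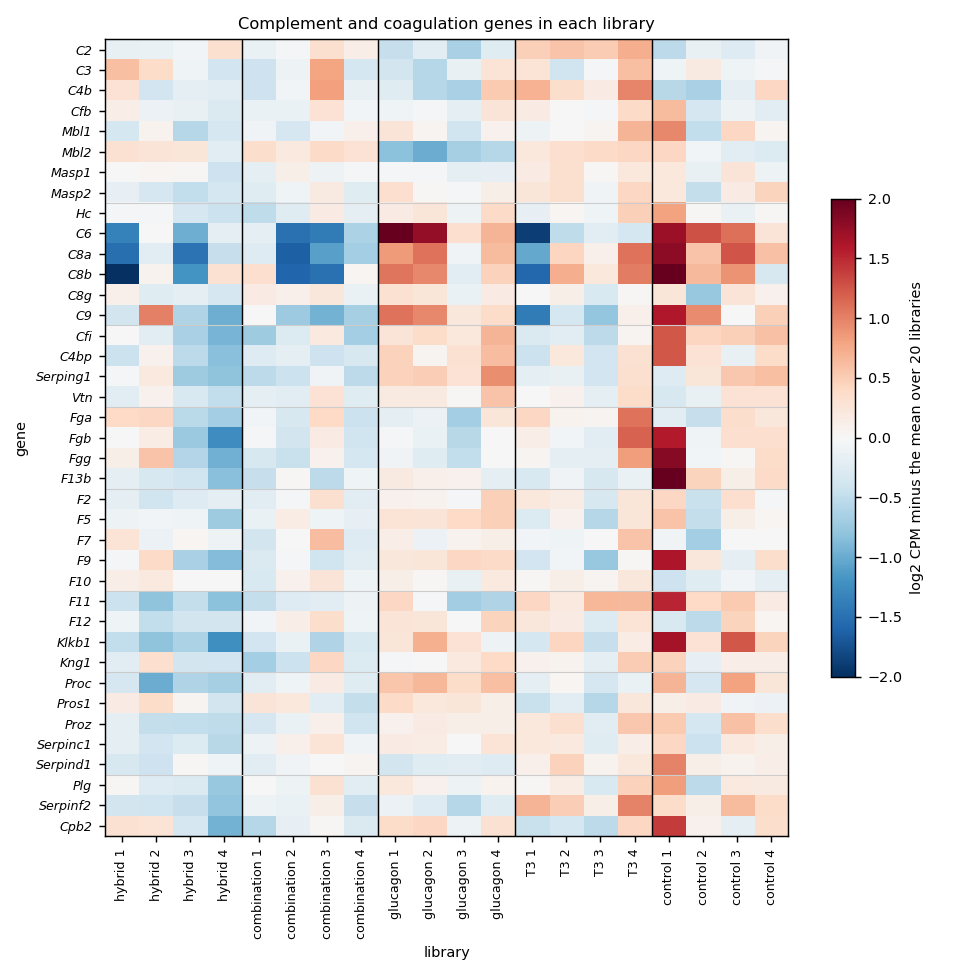
Heat map of the 39 genes (rows, ordered by role) in the 20 libraries (columns, hybrid to control from left to right), coloured by log2 CPM minus the gene's mean over the 20 libraries. C6, C8a and C8b are darkest blue in hybrid 1, hybrid 3, combination 2, combination 3 and T3 1, and control 1 is red for many genes, among them F13b at 397 CPM.

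Genes of both cascades were lower in hybrid livers. Against control, 13 of the 39 genes (33.3%) were called in hybrid livers, all 13 of them lower, where 24.4% of all genes were called and 13.2% were called lower. They were the pore components C6 and C8a, the complement inhibitors Cfi and C4bp, the clot proteins Fgb and F13b, the proteases F9, F11 and Klkb1, the anticoagulants Proc, Proz and Serpind1, and Serpinf2, the inhibitor of plasmin. The median change of the 39 genes was -0.54 on the log2 scale, against -0.05 for all genes, and the calls numbered 10 without hybrid 4 or control 1. Here and below, counts with a library left out stand without the share of all genes called in that fit.

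Combination livers shared the sign for a smaller number. Against control 10 of the 39 (25.6%) were called, all lower, where 20.1% of all genes were called and 10.9% called lower (9.23% higher): C6, C8a, C9, Cfi, C4bp, Serping1, F13b, F9, F11 and Klkb1. The median was -0.41, against -0.07 for all genes, and without combination 2 or combination 4 the calls numbered 6. Glucagon alone lowered Mbl2, F11, F13b, Serpind1 and Serpinf2, 5 of the 39 (12.8%), where 21.2% of all genes were called and 11.9% called lower and 9.23% higher, and the median was -0.16, against -0.09 for all genes. The glucagon calls numbered 2 without glucagon 3, 3 without glucagon 4 or control 1, and 8 without control 2. In T3 livers, all of them from lane 5, C2 was called higher and C6, C9, Cfi, F9, F13b and Klkb1 lower against control. Those are 7 of the 39 (17.9%), where 18.0% of all genes were called, 7.31% higher and 10.6% lower. The median in T3 against control was -0.14, against -0.05 for all genes, and without T3 3 the calls numbered 4. These 4 comparisons share the 4 control livers, so their values are given side by side and are not independent of each other.

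**Figure D2:**
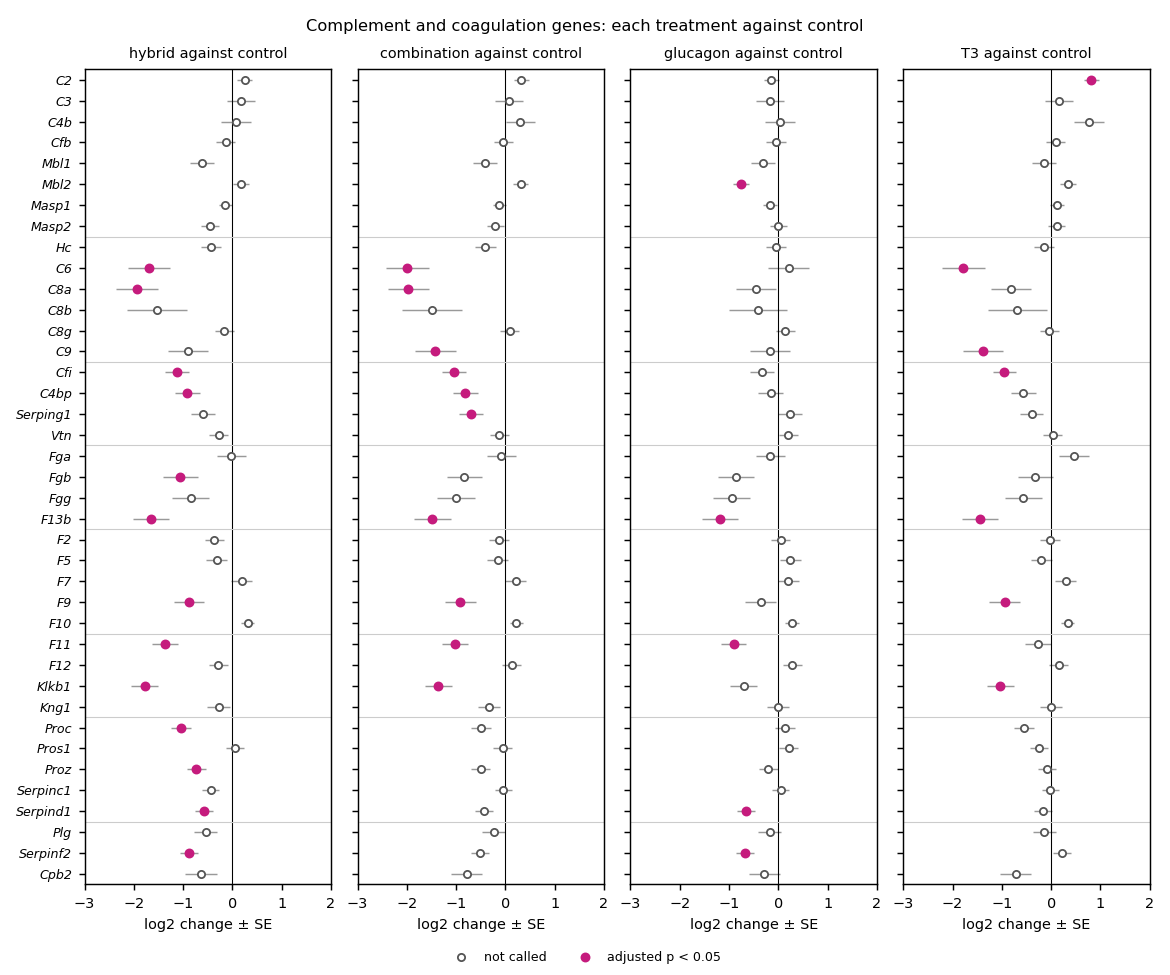
Log2 change with its standard error for each of the 39 genes (rows, ordered by role) in hybrid, combination, glucagon and T3 livers against control livers, n = 4 livers a group. Filled points are called at an adjusted p under 0.05: 13 genes in hybrid, 10 in combination, 5 in glucagon and 7 in T3 livers, and C2 in T3 livers is the filled point to the right of 0.

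C6 and C8a were also called lower where glucagon livers, not controls, were the comparison. In combination against glucagon livers, which asks what T3 adds to glucagon, 2 of the 39 were called higher, Mbl2 and C2, and 6 lower, C6, C8a, C9, Cfi, Serping1 and Proc. That is 20.5% of the 39, where 22.5% of all genes were called, 12.4% higher and 10.2% lower, with a median of -0.18, against -0.00 for all genes. The calls numbered 4 without combination 4 and 5 without combination 2, glucagon 1 or glucagon 2. In hybrid against glucagon livers, Mbl2 was called higher and 10 genes lower: C6, C8a, Cfi, C4bp, Serping1, F12, Klkb1, Proc, Proz and Serpinc1. That is 28.2% of the 39, where 25.2% of all genes were called, 13.6% higher and 11.7% lower, with a median of -0.38, against -0.00 for all genes. Here the calls numbered 5 without hybrid 3, hybrid 4 or glucagon 4, and 7 without glucagon 1.

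**Figure D3:**
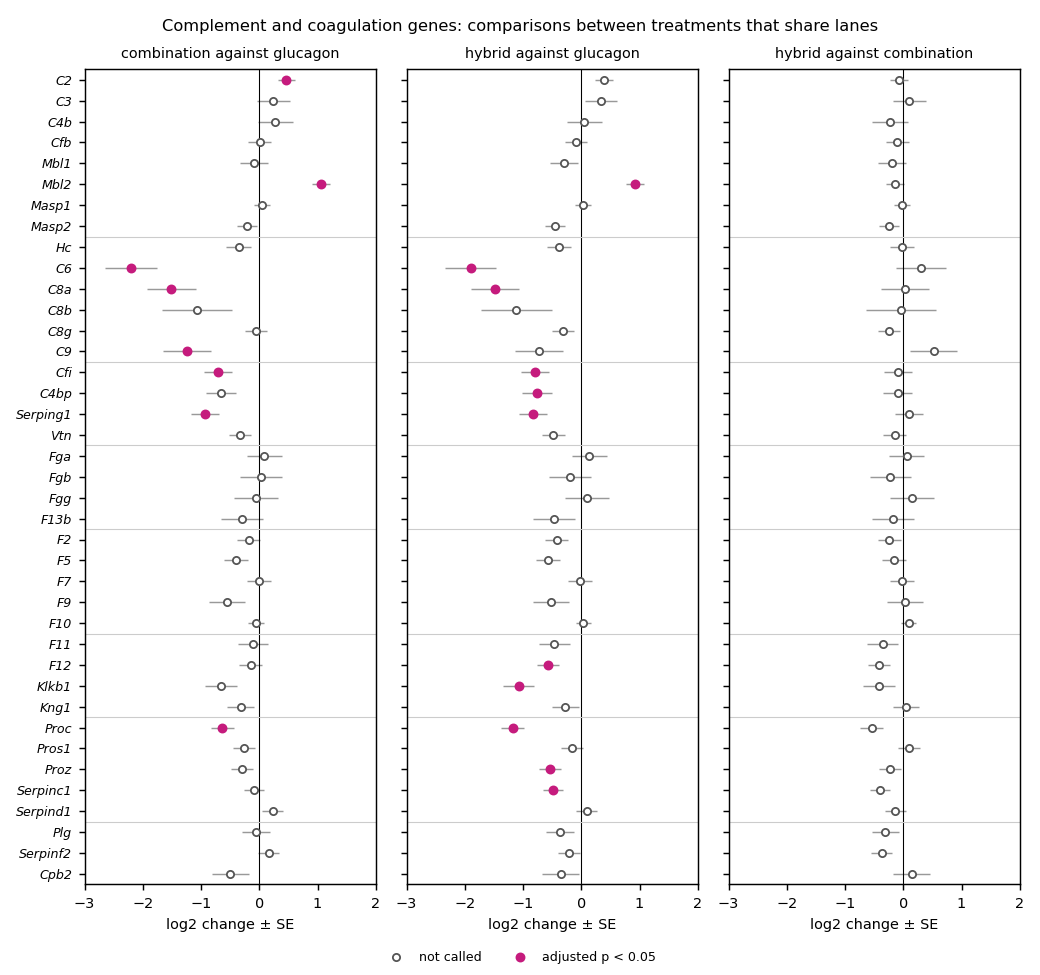
Log2 change with its standard error for the 39 genes in combination against glucagon, hybrid against glucagon and hybrid against combination livers, n = 4 livers a group, all from lanes 1 to 4. Mbl2 is the filled point furthest right in the first 2 panels, C6 the one furthest left, and the third panel holds open points only.

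These splits depended on the scaling. TMM factors ran from 0.8289 to 0.853 in glucagon livers and from 1.05 to 1.22 in hybrid livers. With library totals alone, an alternative added after seeing the data, the median change of all genes moved to 0.24 in hybrid, 0.10 in combination, -0.24 in glucagon and 0.17 in T3 against control, to 0.31 in combination against glucagon and to 0.44 in hybrid against glucagon. The calls were then 4 higher and 9 lower in hybrid livers against control, where 21.4% of all genes were called higher and 6.31% lower. They were 1 higher and 7 lower in combination (all genes 13.8% and 5.95%), 8 lower in glucagon (all genes 6.17% and 18.0%), and 5 higher and 4 lower in T3 (all genes 13.2% and 4.08%) against control. Against glucagon they were 5 higher and 3 lower in combination (all genes 25.1% and 5.20%) and 6 higher and 3 lower in hybrid livers (all genes 36.9% and 4.98%). Beside each gene below, the settings that ended its calls are given: limma voom with a weight per group, a fit of the compared groups alone, library totals, and both control 1 and control 2 or both control 2 and glucagon 3 left out. Calls without a named setting are those of the main fit, edgeR with TMM factors on all livers. Some genes not called in it were called under other settings, and not all such cases are listed. The added higher calls with library totals included C2, Mbl2, F7 and F10 in hybrid against control and C4b, Mbl2, F7 and F10 in T3 against control.

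Among terminal complement components, C6 and C8a fell by more than 1 log2 unit. They had the largest called falls of the 39 genes in combination livers against control, and C8a had the largest in hybrid livers. C6 (chr15:4727175-4814967 on GRCm38) joins C5b to start the pore. C6 stood at 30.1, 77.4, 39.1 and 66.9 CPM in hybrid livers, 67.2, 27.2, 28.9 and 49.6 CPM in combination livers, 319, 259, 96.8 and 123 CPM in glucagon livers and 20.8, 54.1, 65.7 and 60.1 CPM in T3 livers, against 249.5, 184, 164 and 91.6 CPM in control livers. Every hybrid, combination and T3 library lay below every control and every glucagon library, and glucagon and control livers overlapped. The log2 change of C6 was -1.69 ± 0.43 (adjusted p = 0.00735) in hybrid, -1.99 ± 0.44 (adjusted p = 0.00313) in combination and -1.78 ± 0.44 (adjusted p = 0.00908) in T3 livers against control, while in glucagon livers it was 0.21 ± 0.42 (adjusted p = 0.757). Against glucagon livers it was -2.21 ± 0.44 (adjusted p = 0.00107) in combination and -1.90 ± 0.44 (adjusted p = 0.00309) in hybrid livers. No single left-out library ended any of these 5 calls. For C6, calls ended with limma voom in hybrid, combination and T3 against control (adjusted p 0.0575 to 0.109) and without both control 1 and control 2 in hybrid and T3 against control (adjusted p 0.0664 to 0.0870).

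C8a (chr4:104815679-104876398) encodes the alpha chain of C8, which anchors the growing pore in the membrane. C8a stood at 66.1, 162, 67.7 and 137 CPM in hybrid livers, 157, 60.5, 88.6 and 118 CPM in combination livers, 341, 398, 178 and 290.4 CPM in glucagon livers and 92.6, 254, 202 and 398 CPM in T3 livers, against 649.6, 278, 449.9 and 283 CPM in control livers. Hybrid and combination livers lay below all glucagon and all control livers, while T3 livers spread from the low to the high range. C8a changed by -1.94 ± 0.42 (adjusted p = 0.00220) in hybrid and -1.97 ± 0.42 (adjusted p = 0.00246) in combination livers against control, and by -1.48 ± 0.41 (adjusted p = 0.0123) and -1.51 ± 0.41 (adjusted p = 0.0118) against glucagon, in the same order. In glucagon and T3 livers against control the values were -0.46 ± 0.41 (adjusted p = 0.448) and -0.81 ± 0.41 (adjusted p = 0.172). For C8a, calls ended with limma voom in hybrid and combination against control (adjusted p 0.0555 to 0.0568) and with library totals in hybrid against glucagon (log2 -1.02, adjusted p = 0.0520). C8b (chr4:104766317-104804548), the beta chain, lies 11130 bases from C8a on the other strand and was not called in any comparison of the main fit. Without control 4 it was called lower in hybrid livers against control (-1.80, adjusted p = 0.0450). C8b stood at 38.1, 214, 88.4 and 251 CPM in hybrid livers and 258, 67.7, 72.6 and 209.8 CPM in combination livers, against 839, 318, 379 and 164 CPM in control livers. Its changes had the sign of those of C8a, -1.52 ± 0.61 (adjusted p = 0.0745) in hybrid and -1.48 ± 0.61 (adjusted p = 0.0906) in combination against control, with livers that overlapped.

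C9 (chr15:6445327-6498751) polymerises to form the wall of the pore, and lies 1630359 bases from C6 with 8 coding genes between them. C9 stood at 352, 912, 299.5 and 231 CPM in hybrid livers, 456, 273, 236 and 286 CPM in combination livers, 969, 880.4, 534 and 589 CPM in glucagon livers and 173, 357, 266 and 485 CPM in T3 livers, against 1385, 874, 454 and 635 CPM in control livers. One hybrid liver, hybrid 2, stood among the controls, and combination livers lay below all glucagon livers but touched the lowest control. C9 changed by -1.42 ± 0.41 (adjusted p = 0.0195) in combination and -1.39 ± 0.41 (adjusted p = 0.0256) in T3 livers against control, and by -1.25 ± 0.41 (adjusted p = 0.0336) in combination against glucagon livers. In hybrid livers the change was -0.90 ± 0.41 (adjusted p = 0.116), and without hybrid 2 it was -1.50 (adjusted p = 0.00961), a call. Each of the 3 calls ended with any 1 of several libraries left out. The call in combination against control ended without combination 2, combination 3, combination 4 or control 1 (adjusted p 0.0525 to 0.0795, log2 -1.37 to -1.07). That in T3 against control ended without T3 1, T3 2, T3 3 or control 1 (adjusted p 0.0504 to 0.112, log2 -1.44 to -1.03). That in combination against glucagon ended without combination 2, combination 3, combination 4, glucagon 1 or glucagon 2 (adjusted p 0.0772 to 0.0960, log2 -1.21 to -1.10). For C9, calls ended with limma voom in combination and T3 against control (adjusted p 0.152 to 0.162), with the compared groups alone in T3 against control (adjusted p = 0.0775), with library totals in T3 against control and combination against glucagon (log2 -1.15 to -0.91, adjusted p 0.0590 to 0.09955) and without both control 1 and control 2 in combination and T3 against control (adjusted p 0.244 to 0.296). Hc, the mouse gene of C5, and C8g, the gamma chain of C8, had changes from -0.43 to 0.14 against control and were not called.

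Among the initiators and convertase components, Mbl2 and C2 moved and the others did not pass the test. Mbl2 (chr19:30232942-30239687) encodes a mannose-binding lectin that starts the lectin route. Mbl2 stood at 304, 294, 291 and 211 CPM in hybrid livers, 312, 281, 318 and 300.2 CPM in combination livers, 139, 122, 154 and 165 CPM in glucagon livers and 282, 308, 319 and 325 CPM in T3 livers, against 327, 236, 209.8 and 203 CPM in control livers. Each glucagon liver lay below each of the other 16 livers. Mbl2 was lower in glucagon livers against control, with a log2 change of -0.75 ± 0.16 (adjusted p = 0.00218), and was higher in combination livers by 1.06 ± 0.16 (adjusted p = 7.43e-05) and in hybrid livers by 0.92 ± 0.16 (adjusted p = 0.000286) against glucagon. Against control its change was 0.17 ± 0.16 (adjusted p = 0.468) in hybrid, 0.31 ± 0.16 (adjusted p = 0.177) in combination and 0.34 ± 0.16 (adjusted p = 0.145) in T3 livers. Without control 1 the combination and T3 values were called, at 0.48 (adjusted p = 0.0207) and 0.52 (adjusted p = 0.0195). For Mbl2, calls ended with the compared groups alone in glucagon against control (adjusted p = 0.0576).

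C2 (chr17:34862604-34898265) encodes the protease of the C3 convertase of the classical and lectin routes. C2 stood at 195, 196, 209 and 270.1 CPM in hybrid livers, 197, 211, 269.8 and 237 CPM in combination livers, 157, 186, 138 and 182 CPM in glucagon livers and 299, 319.8, 308 and 358 CPM in T3 livers, against 150.3, 195, 181 and 206 CPM in control livers. All 4 T3 livers lay above the other 16. C2 rose in T3 livers against control by 0.81 ± 0.15 (adjusted p = 0.00137), and in combination livers against glucagon by 0.46 ± 0.15 (adjusted p = 0.0324). The call against glucagon ended without combination 3, combination 4, glucagon 1 or glucagon 3 (adjusted p 0.0701 to 0.129, log2 0.36 to 0.44). In hybrid against glucagon livers the change of C2 was 0.39 ± 0.15 (adjusted p = 0.0651), and with replicate number as a block it was called (adjusted p = 0.0499). For C2, calls ended without both control 2 and glucagon 3 in combination against glucagon (adjusted p = 0.116). With library totals C2 was at 0.77 in combination against glucagon (adjusted p = 0.00262). On the same strand, 85 bases separate the end of C2 from the start of Cfb, and C2 overlaps Zbtb12 on the other strand. That overlap is of whole gene spans, introns included, and whether exons overlap was not checked. The strand setting of the counting is not stated either, so whether C2 and Zbtb12 share reads is not known. Gm20547, a coding gene not among the counted symbols, overlaps C2 and Cfb on the same strand.

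The other genes of this role, Cfb, C3, C4b, Mbl1, Masp1 and Masp2, were not called in any comparison of the main fit. Masp2 was called lower in hybrid against glucagon livers with RLE factors, DESeq2, limma voom and the compared groups alone (adjusted p 0.0157 to 0.0492). In hybrid livers against control, DESeq2 called Masp2 (adjusted p = 0.0324) and Mbl1 lower (adjusted p = 0.0480). Both were also called there without control 2 (adjusted p 0.00627 to 0.0113). Cfb, which forms the alternative convertase, changed by -0.14, -0.04, -0.05 and 0.10 in hybrid, combination, glucagon and T3 livers against control, and C3, the protein on which all routes meet, by 0.18, 0.07, -0.17 and 0.16. C4b, the other subunit of the classical convertase, reached 0.76 ± 0.30 (adjusted p = 0.0877) in T3 livers. It has a near-identical copy, C4a, also among the counted symbols, and reads could be split between them. The lectin Mbl1 and the lectin-bound proteases Masp1 and Masp2 lay between -0.61 and 0.11 in the same 4 comparisons.

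In the main fit against control, Cfi and C4bp of the 4 complement inhibitors were called lower in hybrid livers. In combination livers Cfi, C4bp and Serping1 were called lower. Cfi (chr3:129835884-129875332) encodes factor I, the protease that cuts C3b and C4b. Cfi stood at 332, 289.7, 214 and 175 CPM in hybrid livers, 204, 277, 384 and 208 CPM in combination livers, 400.3, 431, 389 and 537 CPM in glucagon livers and 274, 288, 232 and 348 CPM in T3 livers, against 788, 450.3, 464 and 504 CPM in control livers. Hybrid, combination and T3 livers all lay below the 4 controls and below the 4 glucagon livers. Cfi changed by -1.13 ± 0.24 (adjusted p = 0.00195) in hybrid, -1.04 ± 0.24 (adjusted p = 0.00461) in combination and -0.95 ± 0.24 (adjusted p = 0.0107) in T3 livers against control, and by -0.33 ± 0.24 (adjusted p = 0.347) in glucagon livers. Against glucagon it changed by -0.80 ± 0.24 (adjusted p = 0.0184) in hybrid livers, a call that ended without hybrid 3, hybrid 4 or glucagon 4 (adjusted p 0.0616 to 0.0683, log2 -0.72 to -0.65). In combination against glucagon livers Cfi changed by -0.71 ± 0.24 (adjusted p = 0.0367), and the call ended without combination 1, combination 2, combination 4, glucagon 1, glucagon 2 or glucagon 4 (adjusted p 0.0522 to 0.114, log2 -0.76 to -0.61) and with the replicate block (adjusted p = 0.0573). For Cfi, calls ended with limma voom in combination and T3 against control (adjusted p 0.0554 to 0.109), with the compared groups alone in T3 against control (adjusted p = 0.0604), with library totals in combination and hybrid against glucagon (log2 -0.42 to -0.37, adjusted p 0.103 to 0.121) and without both control 1 and control 2 in T3 against control (adjusted p = 0.0624).

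Serping1 (chr2:84765387-84775444) encodes the C1 inhibitor, which also blocks plasma kallikrein and factor XIIa. Serping1 stood at 1175, 1390.1, 736 and 691 CPM in hybrid livers, 843, 901, 1151 and 837 CPM in combination livers, 1654, 1692, 1480.2 and 2304 CPM in glucagon livers and 1050.1, 1093, 930.2 and 1511 CPM in T3 livers, against 1015, 1436, 1762 and 1825 CPM in control livers. The 8 hybrid and combination livers lay below the 4 glucagon livers and overlapped the controls. Against glucagon, Serping1 changed by -0.93 ± 0.24 (adjusted p = 0.00789) in combination livers, a call that no left-out library ended, and by -0.84 ± 0.24 (adjusted p = 0.0147) in hybrid livers, a call that ended without hybrid 3, hybrid 4 or glucagon 4 (adjusted p 0.0523 to 0.0561, log2 -0.71 to -0.69). In hybrid livers against control, Serping1 was not called in the main fit. It was called lower there with DESeq2 (-0.61, adjusted p = 0.0423) and without control 1 (-0.74, adjusted p = 0.0291), among other settings. In combination livers against control, Serping1 changed by -0.69 ± 0.24 (adjusted p = 0.0465). That call ended with the replicate block (adjusted p = 0.0686) and without any 1 of 12 libraries, which were all but hybrid 2, hybrid 3, hybrid 4, combination 3, glucagon 3, glucagon 4, T3 4 and control 1 (adjusted p 0.05002 to 0.114, log2 -0.71 to -0.59). For Serping1, calls ended with limma voom in combination against control (adjusted p = 0.213), with the compared groups alone in combination against control (adjusted p = 0.117), with library totals in combination against control and hybrid against glucagon (log2 -0.55 to -0.41, adjusted p 0.1004 to 0.161) and without both control 2 and glucagon 3 in combination against control (adjusted p = 0.0504).

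C4bp, a cofactor of factor I, stood at 196, 281, 184 and 149 CPM in hybrid livers and 222, 235, 198 and 213 CPM in combination livers, against 625, 322, 237 and 340.2 CPM in control livers. It was called lower in hybrid livers, -0.91 ± 0.25 (adjusted p = 0.0129), and in combination livers, -0.81 ± 0.25 (adjusted p = 0.0287), against control, and in hybrid against glucagon livers, -0.76 ± 0.25 (adjusted p = 0.0338). These calls ended without hybrid 4 or control 1 (adjusted p 0.0550 to 0.0671, log2 -0.78 to -0.56), without combination 1, combination 2, combination 3, combination 4 or control 1 (adjusted p 0.0529 to 0.144, log2 -0.85 to -0.47) and without hybrid 1, hybrid 3, hybrid 4, glucagon 1, glucagon 3 or glucagon 4 (adjusted p 0.0529 to 0.110, log2 -0.79 to -0.63), in that order. For C4bp, calls ended with limma voom in hybrid and combination against control (adjusted p 0.0967 to 0.169), with the compared groups alone in hybrid and combination against control (adjusted p 0.1003 to 0.108), with library totals in hybrid and combination against control and hybrid against glucagon (log2 -0.61 to -0.32, adjusted p 0.0662 to 0.274) and without both control 1 and control 2 in hybrid and combination against control (adjusted p 0.128 to 0.264). In combination against glucagon livers C4bp was called lower with DESeq2, limma voom and the compared groups alone (adjusted p 0.00238 to 0.0365), but not in the main fit. Vtn, which encodes vitronectin, a plasma protein that keeps the pore out of membranes, was not called in the main fit, with changes from -0.28 to 0.20 against control. In hybrid against glucagon livers Vtn was called lower with DESeq2, limma voom and the compared groups alone (adjusted p 0.0306 to 0.0480).

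The contact system, which starts clotting on charged surfaces, held less Klkb1 and F11 transcript in hybrid and combination livers. Klkb1 (chr8:45266689-45294859) encodes prekallikrein. Gm45753, a coding gene not among the counted symbols, overlaps it on the same strand over 25189 of its 28171 bases. Whether this affects the Klkb1 counts was not tested. Klkb1 stood at 50.8, 40.9, 45.6 and 30.5 CPM in hybrid livers, 54.8, 65.2, 47.0 and 57.4 CPM in combination livers, 84.3, 116, 87.0 and 66.4 CPM in glucagon livers and 55.9, 96.1, 51.8 and 78.5 CPM in T3 livers, against 225, 87.3, 167 and 97.4 CPM in control livers. All hybrid and combination livers lay below all glucagon and control livers, and the T3 livers reached into the control range. Klkb1 changed by -1.78 ± 0.27 (adjusted p = 9.71e-05) in hybrid and -1.36 ± 0.27 (adjusted p = 0.00137) in combination livers against control, and by -1.08 ± 0.27 (adjusted p = 0.00605) in hybrid against glucagon livers. In T3 livers against control the change was -1.03 ± 0.27 (adjusted p = 0.0132), a call that ended without T3 3 or control 1 (adjusted p 0.0517 to 0.0625, log2 -0.90 to -0.73). In glucagon against control it was -0.70 ± 0.27 (adjusted p = 0.0660) and in combination against glucagon -0.66 ± 0.27 (adjusted p = 0.0843), neither called. Klkb1 was called lower in glucagon against control with DESeq2 (adjusted p = 0.0493) and without control 2 (adjusted p = 0.0227). Limma voom called it lower in combination against glucagon (adjusted p = 0.0180). For Klkb1, calls ended with limma voom in T3 against control (adjusted p = 0.0922) and with the compared groups alone in T3 against control (adjusted p = 0.103). With library totals Klkb1 was at -0.65 in hybrid against glucagon (adjusted p = 0.0309).

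F11 (chr8:45241174-45262031), 4657 bases from Klkb1 on the same strand, encodes factor XI. F11 stood at 12.1, 9.31, 11.6 and 9.24 CPM in hybrid livers, 11.6, 13.6, 13.9 and 15.1 CPM in combination livers, 21.6, 15.9, 9.99 and 10.7 CPM in glucagon livers and 21.7, 18.6, 25.6 and 25.4 CPM in T3 livers, against 46.6, 21.3, 23.2 and 18.3 CPM in control livers. The hybrid and combination livers lay below all 4 controls and below all 4 T3 livers, and glucagon livers overlapped the controls. F11 changed by -1.37 ± 0.27 (adjusted p = 0.000869) in hybrid, -1.02 ± 0.26 (adjusted p = 0.0101) in combination and -0.91 ± 0.26 (adjusted p = 0.0174) in glucagon livers against control, and by -0.26 ± 0.26 (adjusted p = 0.514) in T3 livers. The glucagon call ended without glucagon 3, glucagon 4 or control 1 (adjusted p 0.0664 to 0.105, log2 -0.78 to -0.51). Without control 1 F11 was at -0.63 (adjusted p = 0.0485) in combination livers. For F11, calls ended with limma voom in combination and glucagon against control (adjusted p 0.0575 to 0.0788), with the compared groups alone in combination and glucagon against control (adjusted p 0.0581 to 0.148) and without both control 1 and control 2 in combination and glucagon against control (adjusted p 0.0926 to 0.180). F12, factor XII, was called in hybrid against glucagon livers alone, -0.57 ± 0.19 (adjusted p = 0.0356). That call ended with the replicate block (adjusted p = 0.0517) and without hybrid 2, hybrid 3, hybrid 4, glucagon 1, glucagon 2 or glucagon 4 (adjusted p 0.0637 to 0.0948, log2 -0.58 to -0.51). For F12, calls ended with library totals in hybrid against glucagon (log2 -0.14, adjusted p = 0.507). Kng1, which encodes kininogen and has a close copy, Kng2, among the counted symbols, changed by -0.33 to -0.01 against control and was not called.

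Of the genes for the fibrin clot, F13b was called in all 4 comparisons with control, and the size of its change rested on control 1. F13b (chr1:139501702-139523752) encodes the carrier subunit of factor XIII, which cross-links fibrin. F13b stood at 61.0, 56.1, 53.2 and 39.01 CPM in hybrid livers, 50.7, 71.1, 48.8 and 66.0 CPM in combination livers, 79.4, 75.0, 74.6 and 61.6 CPM in glucagon livers and 56.8, 66.4, 55.9 and 63.6 CPM in T3 livers, against 397, 94.8, 76.1 and 91.4 CPM in control livers. Control 1 stood far above the other 19 livers, and hybrid, combination and T3 livers lay below all controls. F13b changed by -1.65 ± 0.37 (adjusted p = 0.00288) in hybrid, -1.48 ± 0.37 (adjusted p = 0.00784) in combination, -1.18 ± 0.37 (adjusted p = 0.0262) in glucagon and -1.44 ± 0.37 (adjusted p = 0.0119) in T3 livers. Without control 1 the same changes were -0.74 (adjusted p = 0.00272), -0.57 (adjusted p = 0.0198), -0.26 (adjusted p = 0.285) and -0.52 (adjusted p = 0.0410). The glucagon call also ended without glucagon 2, glucagon 3 or glucagon 4 (adjusted p from 0.0531) and with the replicate block (adjusted p = 0.0541). For F13b, calls ended with limma voom in glucagon and T3 against control (adjusted p 0.0562 to 0.126), with the compared groups alone in hybrid, combination, glucagon and T3 against control (adjusted p 0.0603 to 0.180) and without both control 1 and control 2 in combination, glucagon and T3 against control (adjusted p 0.0605 to 0.496).

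Fgb (chr3:83040141-83049863), the beta chain of fibrinogen, lies in 1 cluster with Fga and Fgg, the alpha and gamma chains. Fgb stood at 1652, 1841, 998 and 709 CPM in hybrid livers, 1638, 1293, 1871 and 1261 CPM in combination livers, 1631, 1516, 1133 and 1669 CPM in glucagon livers and 1825, 1606, 1427 and 3763 CPM in T3 livers, against 5014, 1583, 2106 and 2101 CPM in control livers. Control 1 and T3 4 stood above the rest, and all groups overlapped. Fgb changed by -1.05 ± 0.36 (adjusted p = 0.0387) in hybrid livers against control. The call ended with the replicate block (adjusted p = 0.0588) and without hybrid 3, hybrid 4, combination 1 or control 1 (adjusted p 0.0501 to 0.224, log2 -1.04 to -0.57). For Fgb, calls ended with limma voom in hybrid against control (adjusted p = 0.193), with the compared groups alone in hybrid against control (adjusted p = 0.142), with library totals in hybrid against control (log2 -0.72, adjusted p = 0.0949) and without both control 1 and control 2 in hybrid against control (adjusted p = 0.163). Fgg, with 11801 CPM in control 1 against 3209.9 to 4301 CPM in the other controls, changed by -0.85 ± 0.38 (adjusted p = 0.110) in hybrid and -1.01 ± 0.38 (adjusted p = 0.0670) in combination livers. Fga changed by -0.02, -0.08, -0.16 and 0.46 in hybrid, combination, glucagon and T3 livers against control, and neither Fga nor Fgg was called in the main fit. Without control 2, Fgg was called lower in hybrid, combination and glucagon livers against control (adjusted p 0.0297 to 0.0476). DESeq2 called Fgg lower in combination and glucagon livers (adjusted p 0.0289 to 0.0464).

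Of the procoagulants F2, F5, F7, F9 and F10, F9 was the one called. F9, the vitamin K dependent protease factor IX, stood at 205, 270.0, 132 and 114 CPM in hybrid livers, 169.7, 204, 158 and 177 CPM in combination livers and 160.2, 200.1, 123 and 211 CPM in T3 livers, against 639.7, 244, 183 and 266 CPM in control livers. Control 1 lay above every treated liver, and the other controls overlapped them. F9 changed by -0.88 ± 0.31 (adjusted p = 0.0439) in hybrid, -0.91 ± 0.31 (adjusted p = 0.0441) in combination and -0.94 ± 0.31 (adjusted p = 0.0418) in T3 livers. The hybrid call ended without any 1 of 14 libraries, which were all but hybrid 2, T3 3, T3 4, control 2, control 3 and control 4 (adjusted p 0.0504 to 0.316, log2 -0.95 to -0.35). The combination call ended without any 1 of 12 libraries, which were all but hybrid 2, hybrid 3, hybrid 4, glucagon 3, T3 3, control 2, control 3 and control 4 (adjusted p 0.0504 to 0.290, log2 -0.99 to -0.39), and with the replicate block (adjusted p = 0.0579). The T3 call ended without any 1 of 12 libraries, which were all but hybrid 1, hybrid 2, hybrid 3, hybrid 4, glucagon 3, control 2, control 3 and control 4 (adjusted p 0.0503 to 0.292, log2 -1.05 to -0.41), and with the block (adjusted p = 0.0516). For F9, calls ended with limma voom in hybrid, combination and T3 against control (adjusted p 0.179 to 0.218), with the compared groups alone in hybrid, combination and T3 against control (adjusted p 0.142 to 0.210), with library totals in hybrid, combination and T3 against control (log2 -0.69 to -0.55, adjusted p 0.0880 to 0.150) and without both control 1 and control 2 in hybrid, combination and T3 against control (adjusted p 0.416 to 0.430).

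The other 4 of these were not called in any comparison of the main fit. Against control, F2 (prothrombin) lay between -0.37 and 0.05, F5 (the cofactor of factor Xa) between -0.32 and 0.25, F7 (which starts clotting with tissue factor) between 0.18 and 0.29, and F10 (the protease that activates prothrombin) between 0.22 and 0.33. F5 in hybrid against glucagon livers was at -0.57 ± 0.21 (adjusted p = 0.0505). It was called lower there with RLE factors, DESeq2, limma voom and the compared groups alone (adjusted p 0.0128 to 0.0418). F2 was called lower in hybrid livers against control without control 2 (-0.50, adjusted p = 0.0450).

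In the main fit against control, Proc, Proz and Serpind1 of the 5 anticoagulants were called lower in hybrid livers and Serpind1 in glucagon livers. Proc (on chromosome 18) encodes protein C, which inactivates factors Va and VIIIa. Proc stood at 232, 148, 193 and 185 CPM in hybrid livers, 250.5, 275, 328 and 247 CPM in combination livers, 431, 462, 376 and 445 CPM in glucagon livers and 259, 299, 232 and 268 CPM in T3 livers, against 468, 232, 512 and 345 CPM in control livers. The hybrid livers lay below every liver of the other 4 groups, with hybrid 1 close under the lowest control, and glucagon livers lay above all hybrid, combination and T3 livers. Proc changed by -1.04 ± 0.20 (adjusted p = 0.000842) in hybrid livers against control and by -1.18 ± 0.20 (adjusted p = 0.000241) against glucagon. In combination livers against glucagon it changed by -0.64 ± 0.20 (adjusted p = 0.0251), a call that ended without combination 1, combination 2, combination 4, glucagon 2 or glucagon 4 (adjusted p 0.0501 to 0.0704, log2 -0.65 to -0.59). Against control its changes of -0.50 ± 0.20 (adjusted p = 0.0816) in combination and -0.56 ± 0.20 (adjusted p = 0.0571) in T3 livers were not called. Without control 2 both were called lower (adjusted p 0.00555 to 0.00770). For Proc, calls ended with library totals in combination against glucagon (log2 -0.34, adjusted p = 0.113). With library totals Proc was at -0.75 in hybrid against glucagon (adjusted p = 0.00102).

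Proz, protein Z, a cofactor in the inhibition of factor Xa, stood at 244, 200.4, 198 and 197 CPM in hybrid livers, against 295, 314, 301 and 304 CPM in glucagon livers and 400.4, 219, 419 and 357 CPM in control livers. It was called lower in hybrid livers against control, -0.73 ± 0.19 (adjusted p = 0.00735), and against glucagon, -0.53 ± 0.19 (adjusted p = 0.0424). The call against glucagon ended with the replicate block (adjusted p = 0.0595) and without any 1 of 11 libraries, which were all but hybrid 1, combination 3, combination 4, T3 3, T3 4, control 1, control 2, control 3 and control 4 (adjusted p 0.0504 to 0.0987, log2 -0.55 to -0.50). For Proz, calls ended with limma voom in hybrid against control (adjusted p = 0.0716), with the compared groups alone in hybrid against control (adjusted p = 0.0797) and with library totals in hybrid against glucagon (log2 -0.10, adjusted p = 0.578). With library totals Proz was at -0.42 in hybrid against control (adjusted p = 0.0319). In combination against control, Proz was not called in the main fit. It was called lower there with DESeq2 (-0.51, adjusted p = 0.0371) and without control 2 (-0.67, adjusted p = 0.00649), among other settings. Serpind1, heparin cofactor II, an inhibitor of thrombin, stood at 268, 254, 341 and 318 CPM in hybrid livers and 259.6, 283, 286 and 280.0 CPM in glucagon livers, against 672, 363, 353 and 368 CPM in control livers. It was called lower in hybrid livers, -0.57 ± 0.18 (adjusted p = 0.0262), and in glucagon livers, -0.66 ± 0.18 (adjusted p = 0.0132), against control. The hybrid call ended without hybrid 1, hybrid 2 or control 1 (adjusted p 0.0697 to 0.110, log2 -0.53 to -0.29). Without control 1 the glucagon value was -0.37 (adjusted p = 0.0433). For Serpind1, calls ended with limma voom in hybrid and glucagon against control (adjusted p 0.0656 to 0.119), with the compared groups alone in hybrid and glucagon against control (adjusted p 0.127 to 0.198), with library totals in hybrid against control (log2 -0.25, adjusted p = 0.271) and without both control 1 and control 2 in hybrid and glucagon against control (adjusted p 0.0804 to 0.145). Serpind1 lies within the span of Pi4ka, introns included, on the other strand. Overlap of exons was not checked and the strand setting is not stated, so whether the 2 genes share reads is not known. The same limit holds for Masp2 with Tardbp, C8g with Fbxw5 and Serpinc1 with Zbtb37.

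Serpinc1, antithrombin, was called lower in hybrid against glucagon livers, -0.49 ± 0.18 (adjusted p = 0.0473). That call ended with the replicate block (adjusted p = 0.0645) and without any 1 of 15 libraries, which were all but combination 3, T3 3, control 1, control 2 and control 3 (adjusted p 0.0518 to 0.132, log2 -0.55 to -0.42). For Serpinc1, calls ended with library totals in hybrid against glucagon (log2 -0.06, adjusted p = 0.724). In hybrid livers against control, Serpinc1 was not called in the main fit. It was called lower there with DESeq2 (-0.46, adjusted p = 0.0258) and without control 2 (-0.57, adjusted p = 0.0113), among other settings. Pros1, protein S, the cofactor of protein C, was not called, with changes from -0.25 to 0.21 against control.

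In fibrinolysis, Serpinf2 was lower with hybrid and with glucagon. Serpinf2 (chr11:75431732-75439591) encodes antiplasmin, the main inhibitor of plasmin. Serpinf2 stood at 517, 507, 488 and 387 CPM in hybrid livers, 624, 611, 729 and 489 CPM in combination livers, 617, 563, 450.1 and 568 CPM in glucagon livers and 1068, 939.9, 729.8 and 1331 CPM in T3 livers, against 864, 731, 1043 and 868 CPM in control livers. Hybrid, combination and glucagon livers lay below all controls, combination 3 by a narrow margin, and T3 livers spread over and above the control range. Serpinf2 changed by -0.88 ± 0.18 (adjusted p = 0.00157) in hybrid and -0.67 ± 0.18 (adjusted p = 0.0123) in glucagon livers against control, by -0.52 ± 0.18 (adjusted p = 0.0521) in combination livers and by 0.21 ± 0.18 (adjusted p = 0.437) in T3 livers. The glucagon call ended without glucagon 3 (adjusted p = 0.0507, log2 -0.59). In combination livers against control Serpinf2 was called lower with DESeq2 (adjusted p = 0.0241) and without control 2 (adjusted p = 0.0321), among other settings. For Serpinf2, calls ended with limma voom in glucagon against control (adjusted p = 0.122) and with the compared groups alone in glucagon against control (adjusted p = 0.0617). Plg, plasminogen, and Cpb2, a carboxypeptidase that slows the lysis of fibrin, were not called. Plg changed by -0.54 to -0.14 and Cpb2 by -0.78 to -0.28 against control.

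**Figure D4:**
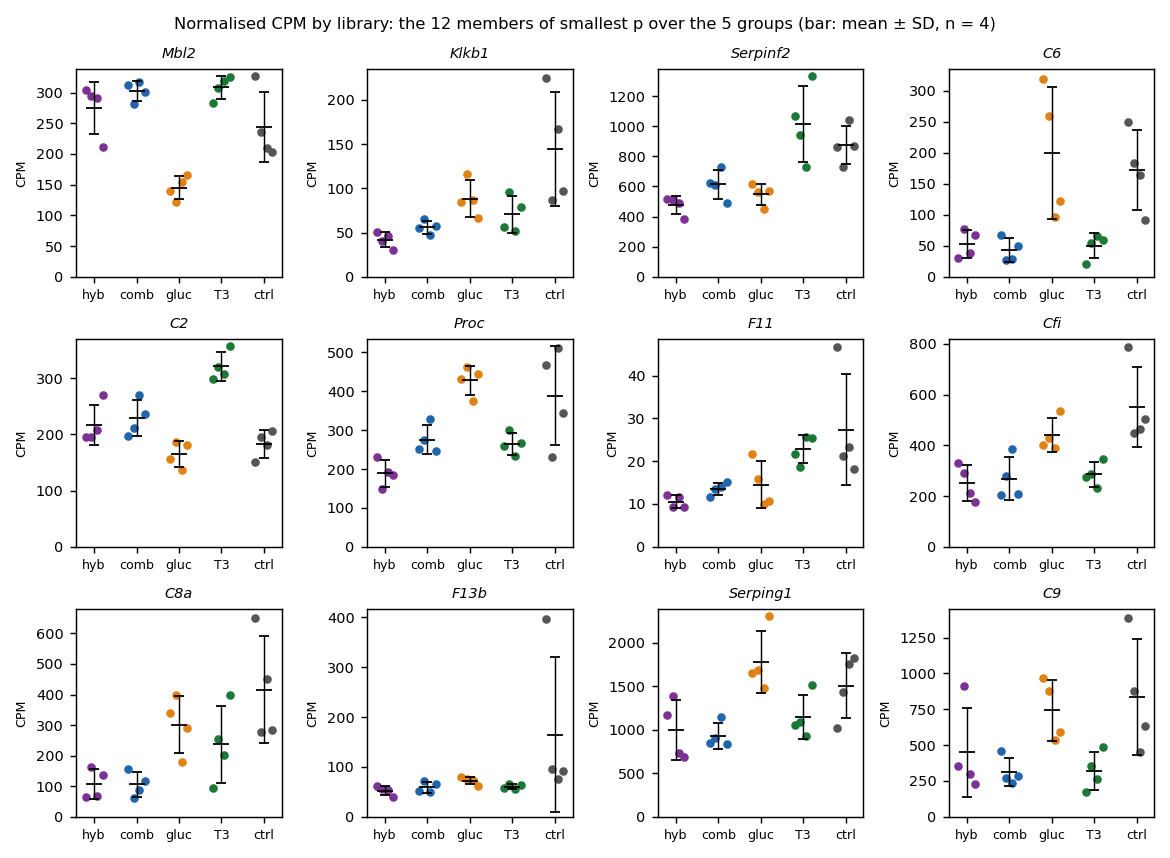
Normalised CPM in each of the 20 livers for the 12 genes with the smallest p over the 5 groups (points), with the mean and SD of each group of 4 (bars). Mbl2 is lowest in the 4 glucagon livers (122 to 165 CPM), C2 is highest in the 4 T3 livers (299 to 358 CPM), and in F13b control 1 stands alone at 397 CPM.

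Hybrid and combination livers were set against each other to ask whether joining the hormones in 1 molecule matters for these genes. None of the 39 was called by edgeR, DESeq2 or limma voom, where 0.0310% of all genes were called by edgeR. At an unadjusted p under 0.05 edgeR counted 3, DESeq2 4 and limma voom 4. The share of all genes under that value is not given here. With no difference that share is 0.05, so these counts are not read as a result. The 3 of edgeR were lower in hybrid livers: Proc at -0.54 ± 0.20 (adjusted p = 0.651), F12 at -0.42 ± 0.19 (adjusted p = 0.711) and Serpinc1 at -0.40 ± 0.18 (adjusted p = 0.709). The 95% interval of the log2 difference was -0.95 to -0.13 for Proc, -0.98 to 0.14 for Klkb1, -0.47 to 0.19 for Mbl2 and -0.58 to 1.19 for C6. The intervals were widest for C8b (-1.29 to 1.20) and narrowest for Masp1 (-0.30 to 0.26), and for C8b a difference of 1 log2 unit in either direction lies within the interval. Whether the doses were matched is not known, since none is given.

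Whether the combination acted as the sum of glucagon and T3 on the log2 scale was tested as combination minus glucagon minus T3 plus control. None of the 39 genes was called by edgeR, where 3.73% of all genes were, 1.60% with a positive and 2.14% with a negative value. At an unadjusted p under 0.05 edgeR counted 2, Mbl2 at 0.72 ± 0.22 (adjusted p = 0.0861) and F13b at 1.15 ± 0.51 (adjusted p = 0.258). The share of all genes under that value is not given here, so the count is not read as a result. Mbl2 was called by DESeq2 (0.71, adjusted p = 0.0348), with library totals alone (0.80, adjusted p = 0.0448) and without control 3 (0.78, adjusted p = 0.0456), and limma voom called none. A positive value means that the combination livers held more Mbl2 transcript than the sum of the separate changes gives. The lane of the T3 group enters this contrast too.

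Genes of the same pathways outside the 39 were counted from 5 lists, and the log2 change of each named gene, all with an adjusted p under 0.05 in edgeR, stands in parentheses or after its name. Of 30 other complement genes, 3 were called higher and 8 lower in hybrid, 3 and 10 in combination, and 5 and 5 in T3 livers against control, while glucagon lowered 6. Those are 36.7%, 43.3%, 33.3% and 20% of the list in hybrid, combination, T3 and glucagon livers, where 24.4%, 20.1%, 18.0% and 21.2% of all genes were called. Cfp (properdin, which stabilises the alternative convertase) was higher in hybrid (1.01), combination (0.91) and T3 livers (1.26). C1rl, a C1r-like protease, was lower in hybrid (-1.40) and combination livers (-1.20), and C1s, a protease of the C1 complex, in hybrid livers (-1.31). Vsig4, C4a and C1qb were lower in glucagon livers (-0.94, -1.19 and -0.98), and C1qa and Fcna were higher in T3 livers (0.92 and 0.90). In combination against glucagon 8 were higher and 2 lower, and in hybrid against glucagon 8 higher and 5 lower, 33.3% and 43.3% of the list where 22.5% and 25.2% of all genes were called, with C1qa at 1.18 and 1.10. Macrophages, Kupffer cells among them, are a known source of C1q, Vsig4 and Cfp. The 17 macrophage markers, which include Vsig4, C1qa and C1qb, summed to 1255 to 1785 CPM in hybrid, 1234 to 1459 CPM in combination, 565 to 702 CPM in glucagon, 1644 to 2055 CPM in T3 and 726 to 1527 CPM in control livers. That sum moved with these genes, and its part in them was not tested.

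Of 40 other coagulation and fibrinolysis genes, 2 were higher and 7 lower in hybrid, 2 and 6 in combination, 2 and 5 in glucagon and 2 and 3 in T3 livers against control. Those are 22.5%, 20%, 17.5% and 12.5% of the list, where 24.4%, 20.1%, 21.2% and 18.0% of all genes were called. Vwf, the platelet-binding von Willebrand factor made by endothelial cells and megakaryocytes, rose in glucagon (2.89), hybrid (1.84) and combination livers (1.62). F3, tissue factor, fell in glucagon livers (-1.66) and was higher in combination (2.22) and hybrid livers (1.79) against glucagon. Tfpi2, a protease inhibitor, fell in hybrid (-1.52), combination (-1.48) and T3 livers (-1.48), and Thbd, thrombomodulin, rose in glucagon livers (1.63). Apoh, a phospholipid-binding plasma protein, fell in combination livers against control (-0.57) and in hybrid livers against glucagon (-0.66). The 14 endothelial markers, Vwf among them, summed to 711 to 863 CPM in hybrid, 665 to 759 CPM in combination, 745 to 850 CPM in glucagon, 544 to 843 CPM in T3 and 567 to 842 CPM in control livers. The 6 megakaryocyte and platelet markers summed to 17.6 to 23.0 CPM in hybrid, 16.0 to 20.5 CPM in combination, 20.6 to 25.2 CPM in glucagon, 10.4 to 16.3 CPM in T3 and 7.97 to 11.9 CPM in control livers, so hybrid, combination and glucagon livers lay above all controls. One of these markers, F13a1, was at 0 in control 3. The part of these markers in the level of Vwf was not tested.

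Genes of protein maturation and of the acute phase were counted in the same way. Of 10 genes of the vitamin K cycle and of secretion, hybrid, combination and T3 livers each had 2 lower against control, Pdia3, a disulfide isomerase of the endoplasmic reticulum (-0.81, -0.89 and -0.69), and Nqo1, a quinone reductase (-1.39, -1.18 and -1.21). In each of these comparisons that is 20% of the list, near the share of all genes called. Of 31 acute phase genes outside the 39, hybrid livers had 3 higher and 1 lower, combination 3 higher, glucagon 5 higher and 1 lower, and T3 5 higher against control. Those are 12.9%, 9.68%, 19.4% and 16.1% of the list, each below the share of all genes called. These included the metallothioneins Mt1 and Mt2 (4.16 and 3.98 in hybrid livers) and Fgl1, a fibrinogen-like protein (2.08 in hybrid and 2.07 in T3 livers). Socs3, an inhibitor of cytokine signalling, rose in glucagon livers (1.87).

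Of 24 liver-enriched transcription factors tested, 2 were higher and 5 lower in hybrid, 5 and 3 in combination, 2 and 9 in glucagon and 4 and 2 in T3 livers against control. Those are 29.2%, 33.3%, 45.8% and 25.0% of the list, where 24.4%, 20.1%, 21.2% and 18.0% of all genes were called. Cebpb, which encodes a C/EBP factor, rose in combination (1.34) and T3 livers (1.73) against control. Its mean was also higher in glucagon livers, at 499 CPM against 179 CPM in control livers and 453 CPM in combination livers. The test of that difference is not reported here. The clock output genes Nr1d1 and Dbp fell in hybrid (-2.14 and -2.18), combination (-2.09 and -1.49) and glucagon livers (-2.55 and -2.46). Prox1, a factor of hepatocyte identity, rose in hybrid (1.16) and T3 livers (0.93).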

How the data were processed

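Liver RNA was sequenced from 20 mice, 4 in each of 5 groups. The deposited values are raw counts, 1 for each symbol and library. The submitters' processing notes name HTSeq and the mm10 build. Per the labels' protocols, a Qiagen elution kit gave the RNA and Lexogen reagents the libraries. The sources used here name no aligner, annotation or strand setting.

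Genes with low counts were dropped with filterByExpr (minimum count 10, minimum total 15), which removed 412 of 13319 symbols. Counts were scaled by TMM and fitted with edgeR 4.0.16 (R 4.3.3), 1 mean for each of the 5 groups and 15 residual degrees of freedom. The quasi-likelihood test was used for each comparison, with Benjamini-Hochberg adjustment over 12907 genes. The procedure was also run on simulated data with the same spread in all groups. The control livers here varied more than the treated ones, so that run does not vouch for the comparisons with control. Replicate numbers match lanes in 4 groups. Deviations of same-numbered libraries correlated from -0.318 to 0.462 (median 0.071, 24 pairs) and those of different numbers from -0.368 to 0.488 (median -0.029, 72 pairs), so the block is an alternative only.

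Alternatives were RLE factors, no filter, DESeq2 1.42.0, limma 3.58.1 voom with group weights, only the groups compared, the replicate block, each library left out, and control 2 with glucagon 3 left out. Library totals alone, and control 1 with control 2 left out, were added after seeing the data. Values for all 20 livers are given for the 12 members with the smallest p over the 5 groups and for any other member called with a log2 change of at least 1 in size. Of each other list, up to 3 called genes of smallest p a comparison could be named. Some of these are not reported here. Members and lists were chosen with earlier results of these data known. Coordinates are from GENCODE M21 on GRCm38, whose names matched 12113 of 13319 symbols and 39 of 39 members, and promoters are from RefSeq.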

Additional observations from a re-analysis of the deposited data

Results flagged for a closer look

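Within each group of 4 livers, a gene was singled out where its highest or lowest liver lay so far apart from the nearest other that the gap over the group's range passed Dixon's 95% critical value for 4 samples. Of the 195 groups tested (39 genes in 5 groups) 17 met it, where chance gives about 1 in 20 groups. Control 1 was the highest control for Hc (1328 CPM), Cfi (788 CPM), F13b (397 CPM), Fgb (5014 CPM), Fgg (11801 CPM) and Serpind1 (672 CPM), and control 2 was the lowest for F7 (38.5 CPM). T3 4, the library with the fewest counts, was the highest T3 liver for Mbl1 (178 CPM), F7 (91.6 CPM), Fgb (3763 CPM) and Cpb2 (434 CPM). Hybrid 4 was the lowest hybrid liver for Mbl2 (211 CPM), Masp1 (80.6 CPM) and F5 (302 CPM), and hybrid 1 the highest for Proz (244 CPM). Combination 3 was the highest combination liver for Cfb (1233 CPM) and Vtn (3687 CPM).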

How the results depend on the processing

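No single gene's call turned its direction in any alternative. In this paragraph the share of all genes called under the same setting stands in parentheses. Limma voom with group weights called 6 members in hybrid (11.0%), 2 in combination (9.38%), 1 in glucagon (10.1%) and 1 in T3 livers (5.89%) against control, and 9 over the 5 groups (21.7%). Fitting only the groups compared called 7 (9.61%), 5 (7.43%), 0 (7.83%) and 2 (4.19%) in the same comparisons with control, and 13 in combination against glucagon (34.0%). Library totals alone called 8 in glucagon against control (24.2%) and 1 for departure from additivity (3.61%), and DESeq2 also called 1 for additivity (5.29%). Without control 1 and control 2 the calls were 2 in glucagon (17.6%) and 4 in T3 (11.9%) against control and 17 in hybrid against glucagon (33.9%).

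With the replicate block, the calls against control were 12 in hybrid (23.3% of all genes), 8 in combination (19.2%), 4 in glucagon (19.1%) and 6 in T3 livers (17.2%). Against glucagon they were 7 in combination (21.9%) and 9 in hybrid livers (24.5%). They were 0 in hybrid against combination (0.0387%), 0 for additivity (3.37%) and 16 over the 5 groups (40.3%). With each library left out in turn, calls ran from 10 to 19 in hybrid, 6 to 13 in combination, 2 to 8 in glucagon and 4 to 9 in T3 livers against control. They ran from 4 to 10 in combination and 5 to 16 in hybrid livers against glucagon, 0 to 0 in hybrid against combination, 0 to 1 for additivity and 15 to 20 over the 5 groups. The cause of these changes in calls was not tested, and the share of all genes called with a library left out is not given here.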
